A study of Homo sapiens with 6 samples.

Results

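The ZBTB genes encode transcription factors that join a BTB domain to C2H2 zinc fingers. They were taken from the deposited table of read counts as the protein-coding rows whose symbol is ZBTB followed by a number and at most 1 letter. Of 63677 rows, 51 met this rule. Of these 51, 10 rows are further identifiers of ZBTB12, ZBTB22, ZBTB9 and ZBTB33 that were at 0 in every library and are absent from the primary assembly of GENCODE 29. The remaining 41 rows, 1 for each of 41 symbols, all passed the filter on low counts and stood among 19434 genes tested.

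The zinc fingers of these proteins bind DNA, and the BTB domain makes dimers and recruits corepressor complexes such as NCOR and BCOR, so that most members are described as repressors. BTB domains can also bind the ubiquitin ligase scaffold CUL3. Among the family, ZBTB33 (Kaiso), ZBTB38 and ZBTB4 are known to bind methylated CpG sites, ZBTB7B and ZBTB16 are known for lymphocyte fates, and ZBTB12 has been described as a barrier to the dedifferentiation of human pluripotent cells.

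RNA sequencing covered Royan H6 (RH6) and Royan H5 (RH5), lines of human embryonic stem cells, each in a naive and in a primed state of pluripotency, which resemble cells of the embryo before and after implantation. Naive cells had been induced with 2a2iL and were maintained in 2iL medium, primed cells were maintained with bFGF, and all cultures stood on inactivated mouse embryonic fibroblasts (MEF). There were 2 libraries of naive RH6 at passage 10, 2 of naive RH5 at passage 17, 1 of primed RH6 at passage 20 and 1 of primed RH5 at passage 16. State and medium cannot be told apart here. Passage was lower in naive than in primed RH6, and higher in naive than in primed RH5. No label places the duplicates in separate cultures, so the spread between them may be technical. Each p-value reflects that spread, and those over both lines also reflect how far the state effect differed between the lines.

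The libraries held 13457979 to 14663982 counts. Values are given as CPM, counts scaled to a common library size with TMM factors. The 8 markers of pluripotent cells summed to 4342 to 6094 CPM in naive and 7314 to 7593 CPM in primed libraries, and none was at 0 throughout. The naive list of 8 genes stood at 65.1 to 123 against 22.1 to 37.4 CPM. Of that list KHDC3L was at 0 in all naive libraries, and KLF17 was at 0 in naive RH6 replicate 1 and in both primed libraries. The primed list summed to 289 to 449 CPM in naive and 1281 to 1451 CPM in primed libraries, with CD24 listed at 0 in all 6. Markers of other cells also moved with state. The 10 fibroblast markers summed to 368 to 841 CPM in naive and 271 to 284 CPM in primed libraries, with 5 of 8 tested called higher and 1 lower. The 8 mesendoderm markers summed to 234 to 356 against 10.1 to 61.3 CPM, 3 called higher. The 7 trophectoderm markers summed to 105 to 164 against 32.2 to 57.4 CPM, 2 of 5 tested called higher and 1 lower. HAND1 is in both the mesendoderm and the trophectoderm list, and THY1 in both the primed and the fibroblast list. The 8 neural markers summed to 708 to 1141 against 705 to 969 CPM, 4 called lower. The part of these cells in the ZBTB values was not tested, and in bulk RNA fewer cells of a type cannot be told apart from less RNA per cell.

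Naive cells held more mRNA of 6 ZBTB genes and less of 15 than primed cells, over both lines. ZBTB38, ZBTB10 and ZBTB40 were at least 2-fold higher in naive cells, and ZBTB12, ZBTB42, ZBTB3, ZBTB32, ZBTB46 and ZBTB20 at least 2-fold lower. Across all genes, 15.4% were called at this size. Calls were made at an adjusted p below 0.05 by edgeR's quasi-likelihood F-test with Benjamini-Hochberg adjustment over all genes. The called share of the ZBTB genes was 51.2%, against 25.7% of all genes tested. Higher calls made up 14.6% of the family against 12.1% of all genes, and lower calls 36.6% against 13.6%. The median log2 fold change was -0.31 for the 41 genes and -0.01 for all genes. With the sign ignored, the median size was 0.46 against 0.39, much closer than the called shares. All genes tested were not limited to protein-coding rows, and the 2 sets were not matched for count level. Of the 20 uncalled members, 4 had an unadjusted p under 0.05.

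In 6 members all 4 naive libraries lay above both primed libraries, and in 19 all lay below, leaving 16 whose groups overlapped. Among all genes tested, 21.5% lay wholly above and 22.9% wholly below. The summed level of the 41 genes was 2008 to 2203 CPM in the naive and 1846 to 2021 CPM in the primed libraries, so the sums overlapped. At least 1 CPM was reached by 37 to 41 members in each library.

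**Figure D1:**
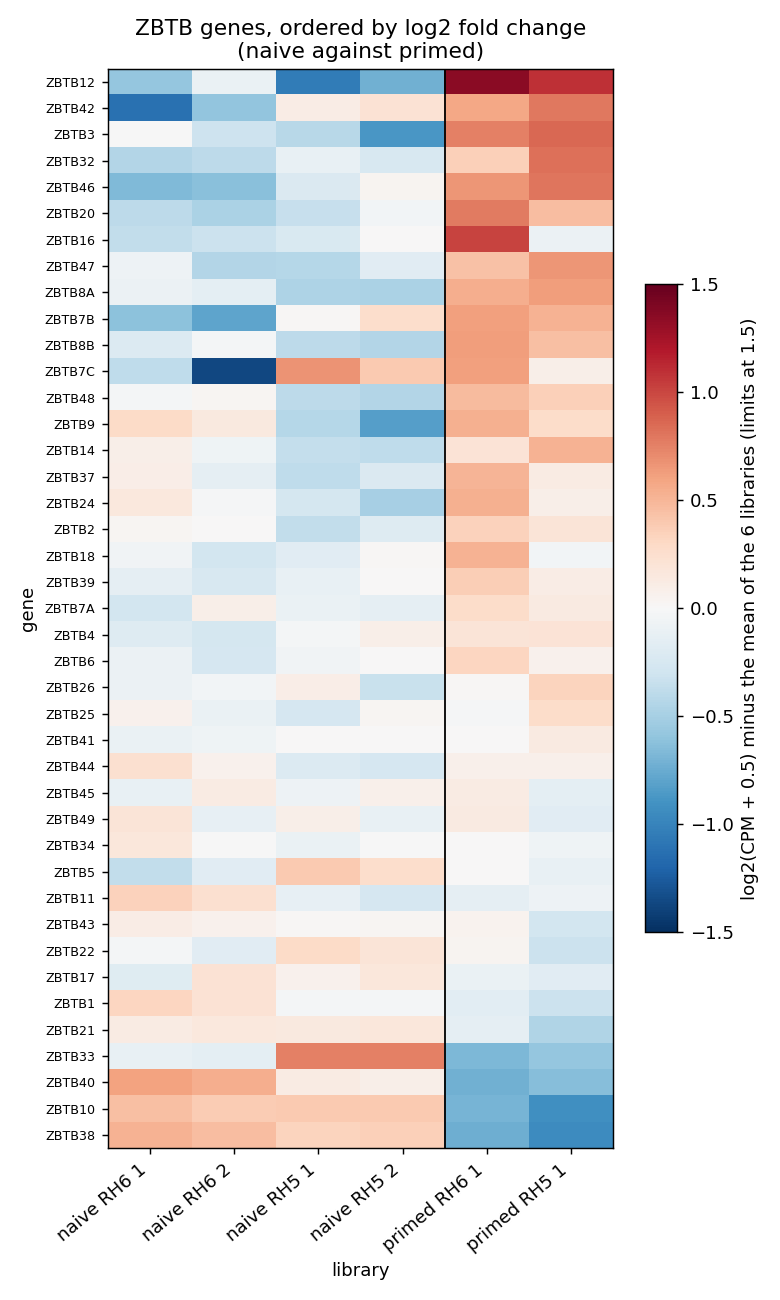
Each row is 1 of the 41 ZBTB genes and each column 1 library; colour gives log2(CPM + 0.5) minus the mean of the 6 libraries, with limits at 1.5. The rows follow the log2 fold change over both lines, and the black line parts the 4 naive from the 2 primed libraries.

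**Figure D2:**
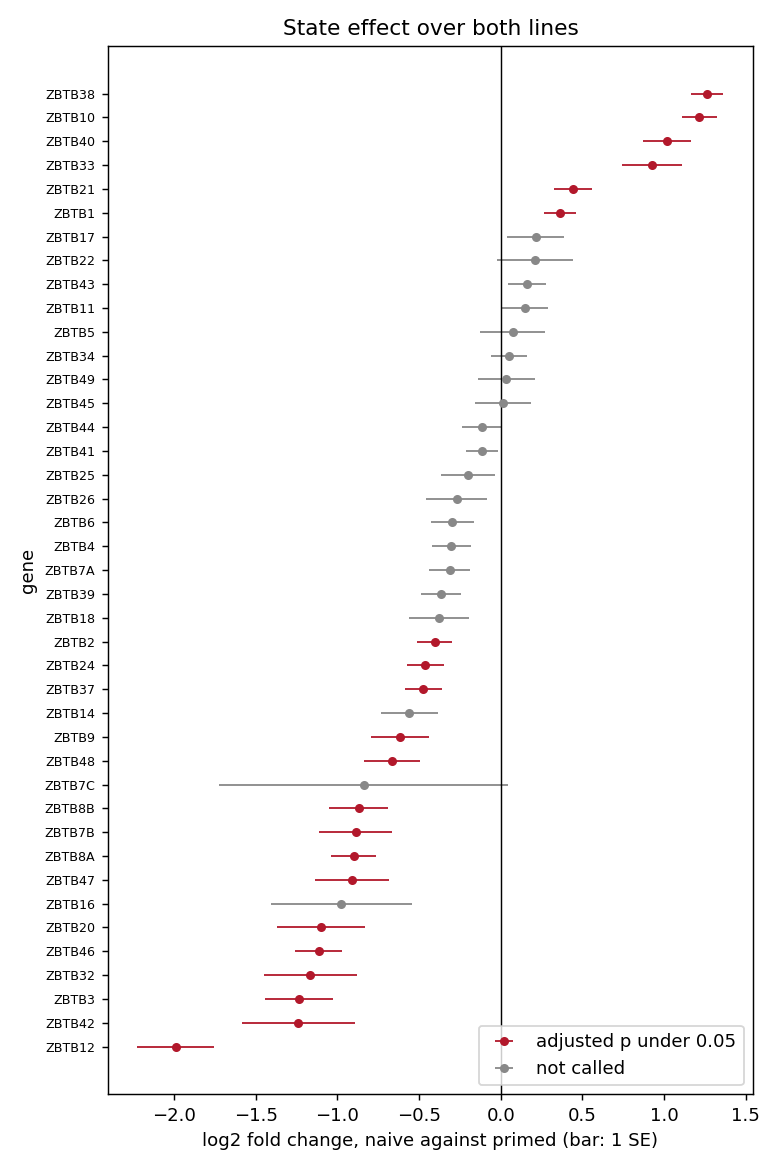
The log2 fold change of naive against primed over both lines is shown for each ZBTB gene with a bar of 1 SE, red at an adjusted p under 0.05. The values run from -1.99 for ZBTB12 to 1.27 for ZBTB38, with 15 red points to the left of 0 and 6 to the right.

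Among the readers of methylated CpG, ZBTB38 (ENSG00000177311) rose in naive cells of both lines. It stood at 126 and 121 CPM in naive RH6, 110 and 113 CPM in naive RH5, 52.6 CPM in primed RH6 and 45.6 CPM in primed RH5. Every naive library lay above both primed ones, and the lines were close to each other. The mean was 118 ± 7.30 CPM (SD, n = 4) in naive cells and 49.1 CPM in primed ones, and the log2 fold change was 1.27 ± 0.10 (SE, edgeR adjusted p = 3.48e-04). Each SD with n = 4, here and below, pools 2 libraries of each line. It mixes lines with duplicates that may be technical, and is no spread of 4 independent cultures.

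ZBTB33 (ENSG00000177485), Kaiso, binds methylated CpG pairs as well as an unmethylated site. It stood at 96.0 and 93.4 CPM in naive RH6, 176 and 175 CPM in naive RH5, 64.9 CPM in primed RH6 and 69.3 CPM in primed RH5. The naive libraries lay above the primed ones, and those of naive RH5 were the highest. The log2 fold change was 0.93 ± 0.18 (SE, edgeR adjusted p = 0.0116). Here and below, a value over both lines without the primed library of 1 line comes from the other line alone. Without primed RH6 it was 1.35 and without primed RH5 0.57, and without a term for the line the call was lost (adjusted p = 0.0633). The third reader, ZBTB4 (ENSG00000174282), was not called, with naive libraries at 28.3 to 36.5 CPM, primed libraries at 39.1 and 39.5 CPM and a log2 fold change of -0.30 ± 0.12 (edgeR adjusted p = 0.108).

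The bases before the start of ZBTB33 are printed to show the CpG sites in the promoter of this CpG reader, which had the lowest adjusted p in the family for a difference between the lines. They come from the RefSeq table of promoters, GRCh38.p14, chrX:120250562-120250751 on the plus strand, 190 bases with 16 CpG in capitals and a GC content of 63.2%.
ZBTB33: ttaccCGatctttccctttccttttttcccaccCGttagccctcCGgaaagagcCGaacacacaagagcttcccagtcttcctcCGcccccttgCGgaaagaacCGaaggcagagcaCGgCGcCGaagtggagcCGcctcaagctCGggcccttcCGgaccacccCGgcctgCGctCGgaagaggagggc

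ZBTB24 (ENSG00000112365) is mutated in a form of the ICF syndrome, in which satellite repeats lose DNA methylation, and is known to activate CDCA7. Its naive libraries stood at 86.5, 76.6, 64.4 and 54.5 CPM in the order above, with primed RH6 at 112 CPM and primed RH5 at 82.2 CPM. The groups overlapped, because primed RH5 lay below the higher naive RH6 library, yet each naive library lay below the primed library of its own line. The log2 fold change was -0.46 ± 0.11 (SE, edgeR adjusted p = 0.0247). The call was lost without naive RH6 replicate 2 (adjusted p = 0.0821), without naive RH5 replicate 2 (0.0668) and with no line term (0.1701), and just lost without naive RH6 replicate 1.

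The other members that rose have different roles. ZBTB10 (ENSG00000205189), a repressor of Sp transcription factor genes that also binds variant telomere repeats, stood at 298 and 284 CPM in naive RH6, 287 CPM in each naive RH5 library, 135 CPM in primed RH6 and 115 CPM in primed RH5. The naive duplicates were nearly level and the groups did not overlap. Naive cells held 289 ± 6.35 CPM (SD, n = 4) against 125 CPM, a log2 fold change of 1.22 ± 0.10 (SE, edgeR adjusted p = 4.97e-04).

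ZBTB40 (ENSG00000184677) stood at 98.4 and 94.2 CPM in naive RH6, 70.1 and 68.6 CPM in naive RH5, 39.0 CPM in primed RH6 and 41.2 CPM in primed RH5. The primed libraries were alike, and naive RH6 was the highest group. Its log2 fold change was 1.02 ± 0.15 (SE, edgeR adjusted p = 0.0035). Smaller rises were called for ZBTB21, at 0.44 ± 0.12 on the log2 scale, and for ZBTB1, a factor of lymphoid development, at 0.37 ± 0.10. Both calls were lost without any 1 naive library (adjusted p = 0.0580 to 0.1086), that of ZBTB21 also without primed RH5 (0.0710) and that of ZBTB1 without primed RH6 (0.0599).

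**Figure D3:**
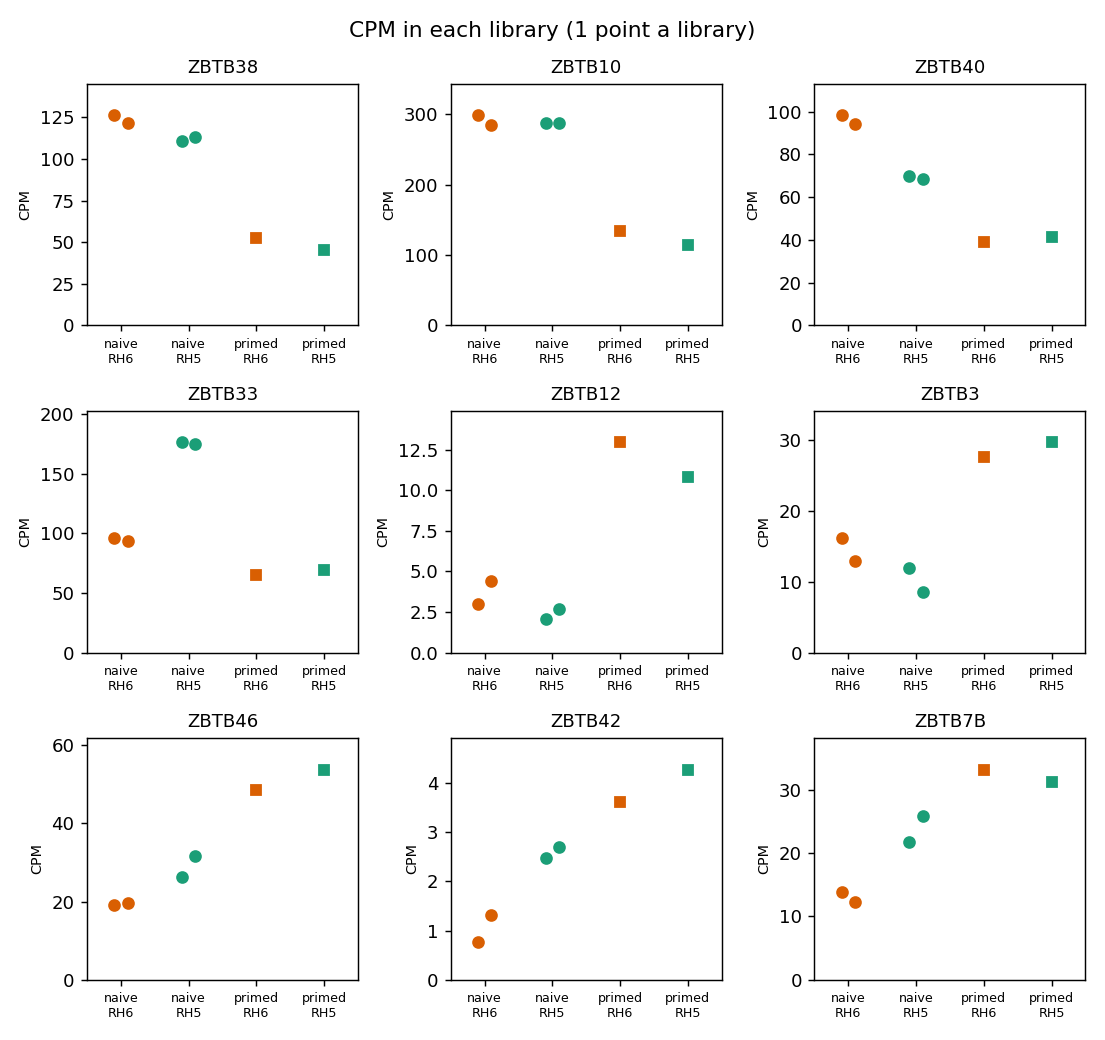
CPM in each library for 9 ZBTB genes, with naive libraries as circles, primed libraries as squares, RH6 in orange and RH5 in green; each axis starts at 0. In these 9 genes no naive library crosses the primed ones, with ZBTB38, ZBTB10, ZBTB40 and ZBTB33 above and the other 5 below.

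The largest fall in the family was that of ZBTB12 (ENSG00000204366). It stood at 3.01 and 4.42 CPM in naive RH6, 2.05 and 2.69 CPM in naive RH5, 12.9 CPM in primed RH6 and 10.8 CPM in primed RH5. Every naive library was below 5 CPM and both primed libraries were above 10 CPM. Naive cells held 3.04 ± 0.999 CPM (SD, n = 4) against 11.9 CPM, a log2 fold change of -1.99 ± 0.23 (SE, edgeR adjusted p = 0.0016), or 3.97-fold lower. The effect was -1.80 in RH6 and -2.19 in RH5.

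ZBTB3 (ENSG00000185670) stood at 16.1, 13.0, 12.0 and 8.59 CPM in the naive libraries, 27.6 CPM in primed RH6 and 29.7 CPM in primed RH5. Its groups did not overlap, and the log2 fold change was -1.23 ± 0.21 (SE, edgeR adjusted p = 0.0064). ZBTB46 (ENSG00000130584), which marks classical dendritic cells and represses other myeloid fates, stood at 19.1 and 19.6 CPM in naive RH6, 26.4 and 31.6 CPM in naive RH5, 48.6 CPM in primed RH6 and 53.8 CPM in primed RH5. Naive RH6 was the lowest group and the primed libraries the highest. The log2 fold change was -1.11 ± 0.14 (SE, edgeR adjusted p = 0.0022).

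The promoters of ZBTB12, ZBTB3 and ZBTB46 are shown because these 3 members fell at least 2-fold over both lines and were also called in each line. All lie on the minus strand and are written 5′ to 3′, with CpG in capitals, from RefSeq, GRCh38.p14. A stretch stops at the gene's start in GENCODE 29 where RefSeq places it further inside. The downstream end of the RefSeq window was found in a GENCODE 29 transcript for ZBTB3 and ZBTB46, but not for ZBTB12, so the start used for ZBTB12 is less certain. The stretch for ZBTB12 is chr6:31902087-31902336, for ZBTB3 chr11:62754189-62754410 and for ZBTB46 chr20:63831265-63831514.
ZBTB12: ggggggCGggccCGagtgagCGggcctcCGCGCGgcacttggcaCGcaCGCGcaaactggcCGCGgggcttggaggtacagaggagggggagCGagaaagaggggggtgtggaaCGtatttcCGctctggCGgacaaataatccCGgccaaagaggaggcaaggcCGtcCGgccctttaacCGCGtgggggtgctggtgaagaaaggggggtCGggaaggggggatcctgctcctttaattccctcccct
ZBTB3: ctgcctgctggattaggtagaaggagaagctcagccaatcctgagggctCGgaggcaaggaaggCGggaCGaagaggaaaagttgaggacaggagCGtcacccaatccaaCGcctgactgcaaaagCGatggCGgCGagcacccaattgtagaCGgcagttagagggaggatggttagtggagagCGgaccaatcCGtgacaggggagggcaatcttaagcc
ZBTB46: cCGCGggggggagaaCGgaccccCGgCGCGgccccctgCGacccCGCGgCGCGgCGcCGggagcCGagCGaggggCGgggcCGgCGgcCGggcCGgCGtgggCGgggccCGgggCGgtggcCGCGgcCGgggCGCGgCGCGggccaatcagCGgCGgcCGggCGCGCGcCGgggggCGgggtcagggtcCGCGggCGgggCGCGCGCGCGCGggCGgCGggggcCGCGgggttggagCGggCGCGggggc
They differ widely in composition. The ZBTB46 promoter held 55 CpG in 250 bases with a GC content of 91.6%, that of ZBTB12 21 CpG in 250 bases with 66.4%, and that of ZBTB3 11 CpG in 222 bases with 57.2%.

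A further 3 members fell at least 2-fold from low levels. ZBTB42 (ENSG00000179627) stood at 0.771 and 1.32 CPM in naive RH6, 2.48 and 2.69 CPM in naive RH5, 3.62 CPM in primed RH6 and 4.27 CPM in primed RH5, a log2 fold change of -1.24 ± 0.34 (edgeR adjusted p = 0.0386). Without primed RH6 the value was -0.72 (adjusted p = 0.1485). ZBTB20 (ENSG00000181722), a known repressor of AFP in liver, stood at 1.89, 1.77, 1.98 and 2.54 CPM in the naive libraries, 4.90 CPM in primed RH6 and 3.84 CPM in primed RH5. Its log2 fold change was -1.10 ± 0.27 (edgeR adjusted p = 0.0251), and -0.76 without primed RH6 (adjusted p = 0.1135). ZBTB32 (ENSG00000011590), a factor of lymphocytes, stood at 0.911, 0.957, 1.27 and 1.12 CPM in the naive libraries, 1.95 CPM in primed RH6 and 2.90 CPM in primed RH5. Its log2 fold change was -1.17 ± 0.28 (edgeR adjusted p = 0.0246). In all 3 genes the naive libraries lay below both primed ones. DESeq2 did not call ZBTB32 over both lines (adjusted p = 0.0731). The ZBTB32 call was lost without any 1 naive library (adjusted p = 0.0640 to 0.0776) and without primed RH5 (0.1076), and that of ZBTB42 without any 1 naive library (0.0717 to 0.1019). The ZBTB20 call was lost without naive RH6 replicate 1 (0.0772), naive RH6 replicate 2 (0.0863) or naive RH5 replicate 1 (0.0792).

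The ZBTB7 genes encode close relatives. ZBTB7B (ENSG00000160685), ThPOK, which sets the helper fate of T cells, stood at 13.9 and 12.2 CPM in naive RH6, 21.8 and 25.9 CPM in naive RH5, 33.2 CPM in primed RH6 and 31.3 CPM in primed RH5. Its log2 fold change was -0.89 ± 0.22 (SE, edgeR adjusted p = 0.0274), and the call was lost without either naive RH6 library (adjusted p = 0.0903 and 0.0943), naive RH5 replicate 1 (0.0741) or primed RH6 (0.0895, at -0.39). ZBTB7A (ENSG00000178951), a repressor of fetal globin genes, stood at 54.1, 69.9, 61.3 and 59.8 CPM in the naive libraries, 79.9 CPM in primed RH6 and 72.4 CPM in primed RH5. Its libraries did not overlap, but at -0.31 ± 0.13 it was not called (edgeR adjusted p = 0.117). ZBTB7C (ENSG00000184828) had 0 to 22 counts a library and was not called, at -0.84 ± 0.88. Without primed RH5 the value was -2.49 and called (adjusted p = 0.0435), and without primed RH6 it was 0.67, the other direction. It was at 0 in naive RH6 replicate 2, where the limit of 3 counts is 0.221 CPM.

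The other calls were smaller falls. ZBTB47 had a log2 fold change of -0.91 ± 0.23, ZBTB8A of -0.90 ± 0.14 and ZBTB8B of -0.87 ± 0.18. ZBTB48, also called TZAP, which binds telomere repeats and trims telomeres, had -0.66 ± 0.17, ZBTB9 -0.62 ± 0.18, ZBTB37 -0.47 ± 0.11 and ZBTB2 -0.40 ± 0.11. Their edgeR adjusted p-values ran from 0.0045 for ZBTB8A to 0.0435 for ZBTB9. Leaving out a library ended the call of ZBTB47, ZBTB8B, ZBTB48, ZBTB9, ZBTB37 and ZBTB2, but not of ZBTB8A. ZBTB48, ZBTB9 and ZBTB2 lost it without any 1 naive library and without primed RH5 (adjusted p = 0.0652 to 0.2051), where ZBTB9 had -0.29. ZBTB47 lost it without naive RH6 replicate 2, either naive RH5 library or primed RH5 (0.0648 to 0.0891). ZBTB37 lost it without naive RH6 replicate 2 (0.0670) or naive RH5 replicate 1 (0.0792), and ZBTB8B without either naive RH5 library (0.0563 and 0.0514). ZBTB8A and ZBTB8B lie next to each other in the genome and both fell. In the adjacent pairs ZBTB6 with ZBTB26 and ZBTB43 with ZBTB34 no member was called. ZBTB1 and ZBTB25 overlap, and ZBTB1 rose while ZBTB25 was not called, at -0.20 ± 0.17.

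Other members with known roles were not called over both lines. ZBTB16 (ENSG00000109906), PLZF, a factor of innate-like lymphocytes and spermatogonial stem cells, stood at 0.981, 1.03, 1.13 and 1.42 CPM in the naive libraries, 3.35 CPM in primed RH6 and 1.30 CPM in primed RH5. Primed RH6 alone was high, and the log2 fold change was -0.97 ± 0.43 (edgeR adjusted p = 0.142). Without primed RH5 it was -1.70 and called (adjusted p = 0.0071), and without primed RH6 it was -0.03. ZBTB17 (ENSG00000116809), Miz-1, through which MYC represses CDKN1A and CDKN2B, stood at 12.3, 16.4, 14.6 and 15.8 CPM in the naive libraries, 13.1 CPM in primed RH6 and 12.4 CPM in primed RH5. Its groups overlapped, at 0.21 ± 0.17 (edgeR adjusted p = 0.411).

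The state effect was then examined in each line, with the naive duplicates as the source of the spread, which the single primed library of a line was taken to share. In RH6, 6 members were called higher and 16 lower, 53.7% against 33.6% of all genes (16.4% higher and 17.2% lower). In RH5, 5 were called higher and 13 lower, 43.9% against 33.5% of all genes (16.5% higher and 17% lower). The log2 fold changes had the same sign in both lines for 33 of 41 members, 80.5%, against 67.9% of all genes tested. With the sign ignored, their median size was 0.49 in RH6 against 0.45 for all genes, and 0.47 in RH5 against 0.46.

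Calls in both lines were made for 11 members, all with the same sign, out of 22 called in RH6 and 18 in RH5. These made up 26.8% of the family, against 19.4% of all genes, where 3465 of 3771 had the same sign. ZBTB38, ZBTB10, ZBTB40 and ZBTB33 were higher in naive cells of both, and ZBTB12, ZBTB3, ZBTB46, ZBTB8A, ZBTB8B, ZBTB37 and ZBTB24 lower. The RH6 calls of ZBTB24 and ZBTB8B were lost without naive RH6 replicate 2 (adjusted p = 0.0558) and replicate 1 (0.0564), and the RH5 calls of ZBTB24 and ZBTB37 without naive RH5 replicate 2 (0.1385) and replicate 1 (0.1293). DESeq2 called neither ZBTB24 (adjusted p = 0.0791 in RH6 and 0.0712 in RH5) nor ZBTB8B (0.2309 and 0.1394) in either line. It also did not call ZBTB37 in RH5 (0.0990). A further 11 were called in RH6 and not in RH5, as were 2757 of the 19434 genes tested. Of these, ZBTB16 had -1.73 in RH6 against -0.03 in RH5, ZBTB18 -0.70 against -0.03 and ZBTB11 0.42 against -0.11. With DESeq2 the RH6 calls of ZBTB16 (adjusted p = 0.1468) and ZBTB11 (0.0598) were lost. In RH5 but not RH6, 7 were called, as were 2735 of all genes, among them ZBTB21 at 0.62 against 0.27 in RH6 and ZBTB9 at -0.90 against -0.32.

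A difference between those lists is not itself a test, so the state effect in RH6 minus that in RH5 was tested as an interaction. It passed for 3 members, 1 positive and 2 negative, 7.32% against 12% of all genes (5.86% positive and 6.16% negative), with 11 more at an unadjusted p under 0.05. ZBTB33 rose by 0.54 ± 0.12 in RH6 and by 1.34 ± 0.12 in RH5, a difference of -0.80 ± 0.16 (SE, edgeR adjusted p = 0.0099). ZBTB7B had -1.35 ± 0.16 in RH6 and -0.39 ± 0.16 in RH5, a difference of -0.95 ± 0.23 (edgeR adjusted p = 0.0247). ZBTB14 (ENSG00000198081), a repressor of MYC, stood at 31.7 and 28.4 CPM in naive RH6, 23.1 and 22.6 CPM in naive RH5, 34.2 CPM in primed RH6 and 42.8 CPM in primed RH5. Its naive libraries were the lowest in both lines, and the effect was -0.19 ± 0.14 in RH6 and -0.91 ± 0.14 in RH5, a difference of 0.72 ± 0.20 (edgeR adjusted p = 0.0406). With DESeq2 the adjusted p of the difference was 0.1118 for ZBTB7B and 0.2061 for ZBTB14. That of ZBTB14 was 0.0507 without naive RH6 replicate 1 and 0.0658 without naive RH5 replicate 2.

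**Figure D4:**
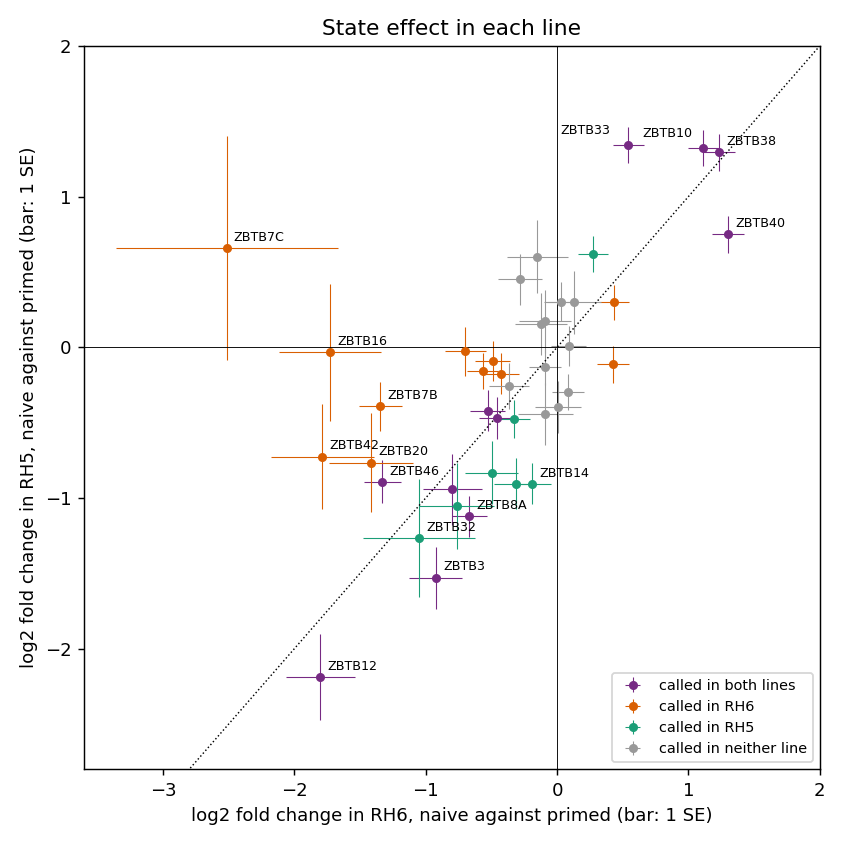
The log2 fold change of naive against primed in RH6 (horizontal) and in RH5 (vertical) is shown for each ZBTB gene with bars of 1 SE, coloured by the line in which it was called; the dotted line marks equal effects. ZBTB33 lies above the line at 0.54 and 1.34, and ZBTB16 lies at -1.73 and -0.03.

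Naive RH6 and naive RH5 were compared directly, 2 libraries against 2, at passages 10 and 17. In RH6, 8 members were higher and 6 lower, 34.1% against 25.5% of all genes (12% higher and 13.5% lower). ZBTB9 had the largest excess in naive RH6, at 0.84 ± 0.14 on the log2 scale (edgeR adjusted p = 0.0018), followed by ZBTB11 at 0.48, ZBTB40 at 0.47, ZBTB24 at 0.46, ZBTB14 at 0.40, ZBTB44 at 0.38, ZBTB8A at 0.37 and ZBTB1 at 0.30. The lower members were ZBTB7C at -2.42, ZBTB42 at -1.30, ZBTB33 at -0.89, ZBTB7B at -0.87, ZBTB5 at -0.61 and ZBTB46 at -0.58. ZBTB9, ZBTB40, ZBTB33, ZBTB7B and ZBTB46 were called in all 13 alternatives. The ZBTB7C call rested on 7 and 0 counts in naive RH6 and was lost with DESeq2 (adjusted p = 0.1341) and without naive RH6 replicate 2 (0.1035, at -1.47). That of ZBTB42 was lost with DESeq2 (0.1523) and without naive RH6 replicate 1 (0.1066). ZBTB11 (0.0609) and ZBTB24 (0.1527) lost theirs without naive RH5 replicate 2. ZBTB8A lost it without any 1 naive library (0.0575 to 0.2079), and ZBTB1, ZBTB44 and ZBTB14 without naive RH6 replicate 1 or either naive RH5 library (0.0547 to 0.2051). DESeq2 did not call ZBTB1 (0.0873), ZBTB8A (0.2661), ZBTB14 (0.1879) or ZBTB5 (0.0643). These naive libraries are also those of the state comparisons, so the values are not independent of them. The fibroblast markers differed between these groups too, at 655 and 841 CPM in naive RH6 against 368 and 423 CPM in naive RH5, with 5 of 8 tested called higher in RH6. Of the naive markers 4 of 6 were called lower in RH6, with a median of -1.16, and of the pluripotent markers 6 of 8 higher, with a median of 0.60. Of the mesendoderm markers 5 of 8 were higher and 1 lower. Their part in the ZBTB values was not tested.

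Related gene lists were read against the same background of 25.7% called over both lines. Of 8 BTB zinc finger genes under other names, 1 rose and 2 fell, 37.5%, with a median of -0.22. BCL6B, a relative of the germinal centre repressor BCL6, fell from 8.54 CPM in primed to 0.634 ± 0.251 CPM (SD, n = 4) in naive cells, a log2 fold change of -3.73 ± 0.36 (edgeR adjusted p = 7.84e-04). HIC2 rose by 0.88 ± 0.10 and MYNN had -0.44 ± 0.13. Among 27 corepressor and deacetylase genes 1 rose and 4 fell, 18.5%, with a median of -0.11. MTA3, a subunit of the NuRD complex, had -1.10 ± 0.12, the deacetylase HDAC5 -1.04 ± 0.12 and the corepressor CTBP2 -0.89 ± 0.09. GATAD2B had -0.48, and the NuRD subunit MTA2 rose by 0.34.

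Of 12 ubiquitin ligase partners of BTB domains, 4 rose and 3 fell, 58.3%, with a median of 0.13. The substrate adaptors SPOP and KEAP1 had -0.71 ± 0.19 and -0.65 ± 0.14, and KCTD10 rose by 0.52 ± 0.11. CUL3 itself was not called, at 0.08 ± 0.09. Of 13 other methyl-CpG readers and partners, 4 rose and 4 fell, 61.5%, with a median of 0.25. DNMT3L, a cofactor of the DNA methyltransferases, rose by 5.61 ± 0.27, while DNMT3B, a methyltransferase that sets new marks, had -2.20 ± 0.12 and CDCA7L -0.92 ± 0.10. DNMT3L and DNMT3B also stand among the naive and pluripotent markers. CDCA7 is in this list and in the next, so its call counts in the shares of both.

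Of 11 genes known as targets or partners of single ZBTB proteins, 8 were tested, and 5 rose and none fell, 62.5%, with a median of 0.78. The cell cycle inhibitors CDKN2B and CDKN1A, which Miz-1 activates, rose by 2.57 ± 0.64 and 1.29 ± 0.15. MYC rose by 1.08 ± 0.12 (edgeR adjusted p = 0.0014) and WNT11, a gene described under Kaiso control, by 2.48 ± 0.52. CDCA7, the target of ZBTB24, rose by 0.48 ± 0.11 while ZBTB24 fell. The untested genes were HBG1 and MMP7, at 0 in every library, and HBG2, with at most 3 counts.

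The RefSeq promoter table held 35 of the 41 symbols, with 68 start sites. Over the 250 bases before the start, member windows had a median of 16.5 CpG and 62.8% GC, against 11 CpG and 58% over all 35116 windows. Motifs were searched on both strands. The GC box GGGCGG stood in 57.4% of member windows and 42.6% of all, CCAAT in 38.2% and 32.0%, and GCGCGC in 16.2% of each. The unmethylated Kaiso site TCCTGCNA stood in 7.35% and 3.74%, and the palindrome that Kaiso binds when methylated in 0 of 68 member windows and 0.373% of all. Windows of 1 gene overlap in part, and a match describes letters, not binding.

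Some members share exon bases with other genes in GENCODE 29, and the strand setting of the counting is not given in the sources used here. ZBTB24 shares 305 bases on the same strand with MICAL1, so how reads were assigned between them is uncertain. ZBTB25 and ZBTB1 share 507 bases on opposite strands, and ZBTB8A shares 179 with ZBTB8OS. ZBTB12 shares 141 bases on the opposite strand with C2, which had 18 counts in all against 510 for ZBTB12.

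ZBTB38, ZBTB10 and ZBTB12 were called over both lines under all 15 alternative settings. Those that left out a primed library rest on the other line alone, so they do not check an effect over both lines. ZBTB46, ZBTB8A, ZBTB40 and ZBTB3 lost the call when each line's naive duplicates were summed (adjusted p = 0.0529, 0.0964, 0.0562 and 0.0656) and in no other. The other 14 called members lost it under at least 1 further setting, with adjusted p up to 0.281, and no called member changed sign.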

How the data were processed

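Whole-number read counts per gene were deposited by the authors as 1 unnormalized table of 6 libraries. FastQC, STAR 2.4.0a, featureCounts 1.4.5-p1 of Subread and DESeq2, with the builds hg19 and GRCh37.p5, are named per the submitters' processing notes, with no role or order. Per the labels' protocols a stranded total RNA kit was used, whereas the molecule field says polyA RNA.

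From these counts edgeR 4.0.16 in R 4.3.3 (quasi-likelihood F-test, TMM, filterByExpr with a minimum count of 10 and total of 15) tested naive against primed over both lines with a line term (3 residual degrees of freedom), and each line, their difference and the naive lines in a fit with 1 mean per group (2 residual degrees of freedom). P-values were two-sided and adjusted over 19434 genes. Both fits were tried on simulated data, only for the comparison over both lines and that in RH6. The simulation had independent libraries, the same spread for all genes, no effect of line, and changes only in well-counted genes. It does not cover duplicates that are technical, or genes with few counts. SE is the log2 fold change divided by the square root of F. Alternatives were DESeq2 1.42.0, limma-voom (limma 3.58.1), RLE and upper-quartile scaling, no and a stricter count filter (30), a replicate block, no line term, summed naive libraries and each library left out. Duplicates differed beyond counting noise (chi-square per gene 9.22 in RH6 and 5.76 in RH5, for pairs with at least 10 counts).

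Values per library were given for members called with at least 2-fold change over both lines, the called members with the largest difference between lines (up to 6, of which 3 were called), and ZBTB12, ZBTB16, ZBTB17, ZBTB24, ZBTB33, ZBTB7A, ZBTB20 and ZBTB10. Other members are named where called. ZBTB4 and ZBTB7C, and the uncalled ZBTB genes of the neighbour pairs and of the overlap sentences, were added after their values were seen. The members and lists were chosen with earlier results of these data known. Some genes of the lists and of the overlaps are not reported here.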

Additional observations from a re-analysis of the deposited data

Results flagged for a closer look

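In 3 ZBTB genes the state effect differed between the lines by the interaction test over all genes. For ZBTB33 the effect in RH6 minus that in RH5 was -0.80 on the log2 scale (edgeR adjusted p = 0.0099), and all 4 naive libraries lay above the primed ones. For ZBTB7B it was -0.95 (adjusted p = 0.0247), the fall being larger in RH6. For ZBTB14 it was 0.72 (adjusted p = 0.0406), the fall being larger in RH5. In the same contrast 6 of 8 mesendoderm markers were called higher (median 3.73), 4 of 8 pluripotent markers higher (median 0.57), 1 of 8 neural markers higher and 3 lower (median -1.10), and 2 of 8 fibroblast markers higher (median -0.04). The part of these cells, and of passage, in the differences was not tested. No naive library stood apart from the other 3 by Dixon's test in any of the 41 members. The test pooled both naive lines, so where the lines differ it can hardly single out 1 library.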

How the results depend on the processing

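Over both lines, 6 ZBTB genes were called higher and 15 lower. With each line's naive duplicates summed these counts were 2 and 1 (5.52% of all genes called), with no line term 4 and 8 (18.3%), with upper-quartile scaling 4 and 17 (26.5%), and on leaving out 1 library they ran from 4 to 6 and from 5 to 16. The shares of all genes called were 15.6% to 17.6% without a naive library and 32% and 32.3% without a primed one. The number of lower calls was 5 without naive RH5 replicate 1 or naive RH6 replicate 2, and 7 without naive RH5 replicate 2 or naive RH6 replicate 1. With the replicate block, 4 were higher and 6 lower (18.2%). With DESeq2 the lower calls were 8 in RH6 (16) and 6 in RH5 (13), the line differences 0 higher (1) and 1 lower (2), and the naive line differences 5 higher (8) and 3 lower (6), where brackets give the edgeR count; of all genes it called 22.1%, 22%, 7.95% and 14.7%. Leaving out 1 library gave 0 to 3 higher and 3 to 4 lower line differences, and 2 to 9 higher and 5 to 6 lower naive line differences, the count of 2 being without naive RH5 replicate 2. In RH5 it gave 5 to 7 higher and 10 to 15 lower calls, and in RH6 14 to 18 lower. Of all genes the fits without 1 library called 29.6% to 39.7% in RH5 and 32.3% to 36.7% in RH6. For the line difference they called 12.7% to 16.3% and for the naive lines 20.3% to 24.7%, the lowest again without naive RH5 replicate 2. On leaving out a naive library of the line, ZBTB17 in RH6 ran from -0.090 (without replicate 2) to 0.32, and ZBTB16 in RH5 from -0.19 to 0.12 (without replicate 1), uncalled throughout. The causes were not tested.

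Replicate numbers were shared by the naive duplicates of the lines, but their deviations correlated at only 0.140 over 2 pairs, so the numbers were not taken to pair libraries. With the replicate block the called members were 9 higher and 18 lower in RH5, 7 and 21 in RH6, 6 and 6 for the line difference, and 12 and 7 for the naive lines. Of all genes it called 45.1% in each line, 25.3% for the difference and 38.1% for the naive lines.

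With 1 primed library a line, the spread of primed cells was not measured. ZBTB16, ZBTB20, ZBTB32, ZBTB42 and ZBTB7C had few counts in some or all libraries, which limits the precision of their fold changes.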
